A study of Mus musculus with 17 samples.

Results

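Gene expression in Asxl1 KO CD8 T cells was compared directly with that in Tet2 KO CD8 T cells, using all genes with a symbol. The 8 libraries of the comparison, 4 per knockout, were taken from the 17 of the series by the genetic modification in their labels. The other 9 were 5 Rosa KO libraries, used as the control, and 4 Dnmt3a KO libraries; they entered the model, and Rosa KO values are printed as reference levels. Per the labels, every library came from mouse spleen and from CD8 T cells marked CD8+Thy1.1+, where Thy1.1 is a congenic allele used to track transferred or donor-derived cells. The series title places these cells in a study of clonal hematopoiesis regulators and CD8 T cell stemness during immunotherapy. How the knockouts were made, the animals' strain and age, any treatment and the time of harvest are not stated in the labels used here. The labels number the replicates without naming animals or cultures, so p-values cover the spread among these libraries, part of which may be technical.

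Asxl1 is a cofactor of the deubiquitinase Bap1, which removes the ubiquitin that Polycomb repressive complexes place on histone H2A. Tet2 oxidises 5-methylcytosine in DNA, mostly at CpG sites, and so opposes DNA methylation. CD8 T cells that meet antigen for long periods become exhausted: they carry inhibitory receptors such as PD-1 and depend on the transcription factor Tox, while a stem-like subset that expresses Tcf7 renews them.

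Total counts were 18591728, 17387401, 22056893 and 18014394 for the Asxl1 KO libraries (1 to 4) and 30084945, 23124532, 13890257 and 16389050 for the Tet2 KO libraries (1 to 4). The library numbers of the labels fell into 3 separate runs, which the labels do not call batches. Asxl1 KO 1 lay in run 1, Asxl1 KO 2 and Tet2 KO 1 and 2 in run 2, and Asxl1 KO 3 and 4 and Tet2 KO 3 and 4 in run 3. No Tet2 KO library lay in run 1. Of the Rosa KO libraries, 1 lay in run 1, 0 in run 2 and 4 in run 3, so the Rosa KO levels printed below come mostly from run 3. A pair of libraries stood apart from the rest. On the first principal component of the 8 libraries (32.5% of the variance) Asxl1 KO 1 lay at −178 and the others between 14.8 and 36.7, and on the second (20.9%) Tet2 KO 2 lay at 130.8 and the others between −46.0 and 18.02. Asxl1 KO 1 had the fewest genes with a count (12901, against 14166 to 17940 in the other 7) and 2303 CPM (counts scaled to library size) of the haemoglobin gene Hba-a1, against 10.6 to 78.0 in the other 7. Tet2 KO 2 had the lowest summed level of B cell, dendritic, monocyte and neutrophil markers. Within each knockout, no pair of libraries agreed within sampling noise (chi-square per degree of freedom 19.7 to 258 over 12 pairs).

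The targeted genes were read first. Asxl1 stood at 70.3, 146, 87.3 and 114 CPM in Asxl1 KO 1 to 4 and at 96.7, 182, 109.6 and 101 CPM in Tet2 KO 1 to 4. Its log2 fold change, Asxl1 KO minus Tet2 KO, was −0.15 ± 0.22 (SE, adjusted p = 0.966; edgeR quasi-likelihood test, Benjamini-Hochberg adjustment). Tet2 stood at 316, 215, 133 and 149 CPM in Asxl1 KO 1 to 4 and at 216, 254, 129 and 125.1 CPM in Tet2 KO 1 to 4, with a log2 fold change of 0.33 ± 0.23 (adjusted p = 0.87). For both genes the groups overlapped and neither targeted gene was lower in its own knockout beyond the spread, so these totals do not check the labels. Exon-level counts were not analysed here.

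Of 13880 genes tested, 78 passed an adjusted p of 0.05 (0.562%). Of these, 62 were higher (0.447%) and 16 lower (0.115%) in Asxl1 KO than in Tet2 KO, with 1001 genes at an unadjusted p under 0.05. Every Asxl1 KO library lay above every Tet2 KO library for 57 of the 62 higher genes, and below for 12 of the 16 lower genes. Over all tested genes, groups without overlap were found for 3.89%, of which 2.42% in the first direction and 1.47% in the second. The median log2 fold change of all tested genes was −0.01. The smallest adjusted p, 8.51e-06, was shared by Gzma, Ubash3b, Entpd1 and Adgrg1. Without Asxl1 KO 1, 83 genes passed (64 higher and 19 lower), 66 of them among the 78. Leaving out each of the 8 libraries in turn gave 35 to 87 genes, the fewest without Tet2 KO 3, and 34 of the 78 passed in all 8 fits.

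**Figure D1:**
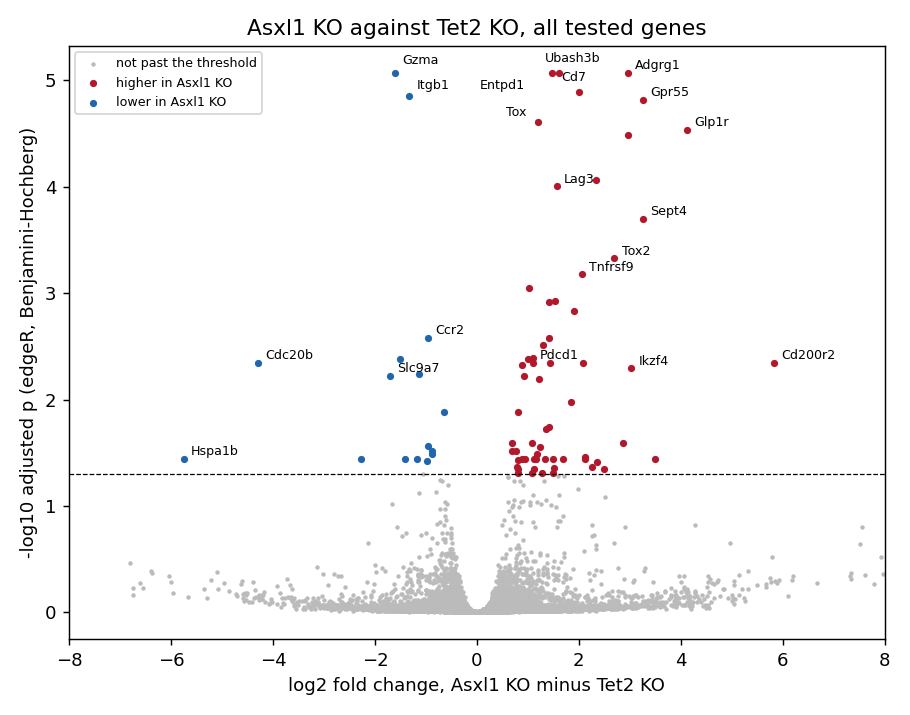
Each point is 1 of the 13880 tested genes, with the log2 fold change (Asxl1 KO minus Tet2 KO) on the x axis and −log10 of the adjusted p on the y axis, and the dashed line marks an adjusted p of 0.05. The 62 genes higher in Asxl1 KO (red) outnumber the 16 lower genes (blue), and 12 genes that did not pass lie outside the axis limits of ±8.

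Several genes of T cell exhaustion and inhibitory receptors were higher in Asxl1 KO. Of the 27 listed, all tested, 10 were higher and 0 lower than in Tet2 KO (0.447% and 0.115% over all genes). The list's median log2 fold change was 0.72. Against Rosa KO the median was 0.28 in Asxl1 KO and −0.30 in Tet2 KO. All Asxl1 KO libraries lay above all Tet2 KO libraries for 13 of the 27, against 2.42% of all genes. The list was chosen with earlier results of these data known, so these shares are a description and not a test. Entpd1, Cd7, Lag3, Cd244a, Pdcd1, Tox, Tox2, Rgs1, Cd160 and Cxcr6 were the 10.

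Tox, the transcription factor on which exhausted CD8 T cells depend, stood at 1731, 1024, 705 and 751 CPM in Asxl1 KO 1 to 4 and at 384, 603, 304 and 321 CPM in Tet2 KO 1 to 4. The groups did not overlap, and the log2 fold change was 1.20 ± 0.15 (adjusted p = 2.45e-05, edgeR). In the 5 Rosa KO libraries Tox ran from 437 to 1142 (median 501) CPM. Its relative Tox2 stood at 152, 20.6, 26.7 and 14.3 CPM in Asxl1 KO and at 2.42, 3.21, 3.77 and 5.12 CPM in Tet2 KO. Asxl1 KO 1 was the highest by far, and the other 3 Asxl1 KO libraries still lay above every Tet2 KO library (log2 fold change 2.70 ± 0.40, adjusted p = 0.000471). Each knockout was also set against Rosa KO in the same fit, where 1.64% of genes passed for Asxl1 KO and 1.47% for Tet2 KO; the comparisons share the Rosa KO libraries. In these, Tox differed by 0.56 (adjusted p = 0.0349) in Asxl1 KO and by −0.65 (adjusted p = 0.0249) in Tet2 KO on the log2 scale. For Tox2 these values were 1.75 (adjusted p = 0.0118) and −0.95 (adjusted p = 0.291).

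Pdcd1, which encodes the inhibitory receptor PD-1, stood at 257, 155, 216 and 247 CPM in Asxl1 KO and at 76.9, 98.4, 86.2 and 100.03 CPM in Tet2 KO. The lowest Asxl1 KO library (Asxl1 KO 2) lay above the highest Tet2 KO library, and the log2 fold change was 1.09 ± 0.20 (adjusted p = 0.00449, edgeR). Lag3, an inhibitory receptor that binds MHC class II, stood at 188, 78.5, 144 and 129 CPM in Asxl1 KO and at 23.2, 21, 57.2 and 49.2 CPM in Tet2 KO (log2 fold change 1.56 ± 0.21, adjusted p = 9.90e-05). For Lag3 the 2 Tet2 KO libraries of run 2 were the lowest of the 8. Against Rosa KO, Pdcd1 differed by 0.97 (adjusted p = 0.00429) in Asxl1 KO and by −0.12 (adjusted p = 0.886) in Tet2 KO, and Lag3 by 1.27 (adjusted p = 0.000594) and −0.29 (adjusted p = 0.639).

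Entpd1, the ectonucleotidase CD39 that degrades extracellular ATP, stood at 359.7, 195, 125.2 and 148 CPM in Asxl1 KO and at 63.8, 69.6, 54.2 and 56 CPM in Tet2 KO. The Tet2 KO libraries lay close together and below every Asxl1 KO and every Rosa KO library, the latter at 125.3 to 322 (median 134.5) CPM. The log2 fold change was 1.47 ± 0.16 (adjusted p = 8.51e-06, edgeR). Against Rosa KO, Entpd1 differed by 0.07 (adjusted p = 0.877) in Asxl1 KO and by −1.40 (adjusted p = 5.89e-05) in Tet2 KO. Cd7, a surface glycoprotein of T and NK cells, stood at 626, 230.4, 732 and 529 CPM in Asxl1 KO and at 64.9, 49.7, 164 and 133 CPM in Tet2 KO (log2 fold change 2.01 ± 0.23, adjusted p = 1.28e-05). Here the values against Rosa KO were 1.71 (adjusted p = 3.27e-05) in Asxl1 KO and −0.30 (adjusted p = 0.669) in Tet2 KO. The median Rosa KO library lay within the Asxl1 KO range for Entpd1 and within the Tet2 KO range for Cd7.

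Cxcr6, the receptor for the chemokine Cxcl16, stood at 518, 278, 493 and 553 CPM in Asxl1 KO and at 178, 211, 183 and 192 CPM in Tet2 KO (log2 fold change 1.11 ± 0.19, adjusted p = 0.00408, edgeR). The remaining 3 passed closer to the threshold. The receptors Cd160 (1.08 ± 0.25, adjusted p = 0.0491) and Cd244a (1.34 ± 0.30, adjusted p = 0.0362) each kept their call in 1 of the 8 fits that left out a library, with adjusted p up to 0.259 and 0.318. Rgs1, a regulator of G protein signalling (0.80 ± 0.18, adjusted p = 0.0371), kept it in 3 of the 8, with adjusted p up to 0.205. Across those 8 fits the list held 7 to 11 higher and 0 lower members. With run 3 alone 17 members were higher and 1 lower, with run 2 alone 0 passed (11 at an unadjusted p under 0.05), and without Asxl1 KO 3 and 4 together 5 were higher. When the run was not a term, 6 members were higher and 0 lower, and when, besides, only the 8 libraries entered, 0 passed in edgeR (16 at an unadjusted p under 0.05). The list's median stayed between 0.61 and 0.89 under these settings, and DESeq2 called 13 members higher.

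Other inhibitory receptors did not pass. Tigit stood at 139.5, 135, 195 and 193 CPM in Asxl1 KO and at 81.1, 110.3, 108 and 101 CPM in Tet2 KO, without overlap between the groups, and its log2 fold change was 0.61 ± 0.31 (adjusted p = 0.717, edgeR). Havcr2, which encodes TIM-3, had overlapping groups and a log2 fold change of 0.31 ± 0.19 (adjusted p = 0.846).

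**Figure D2:**
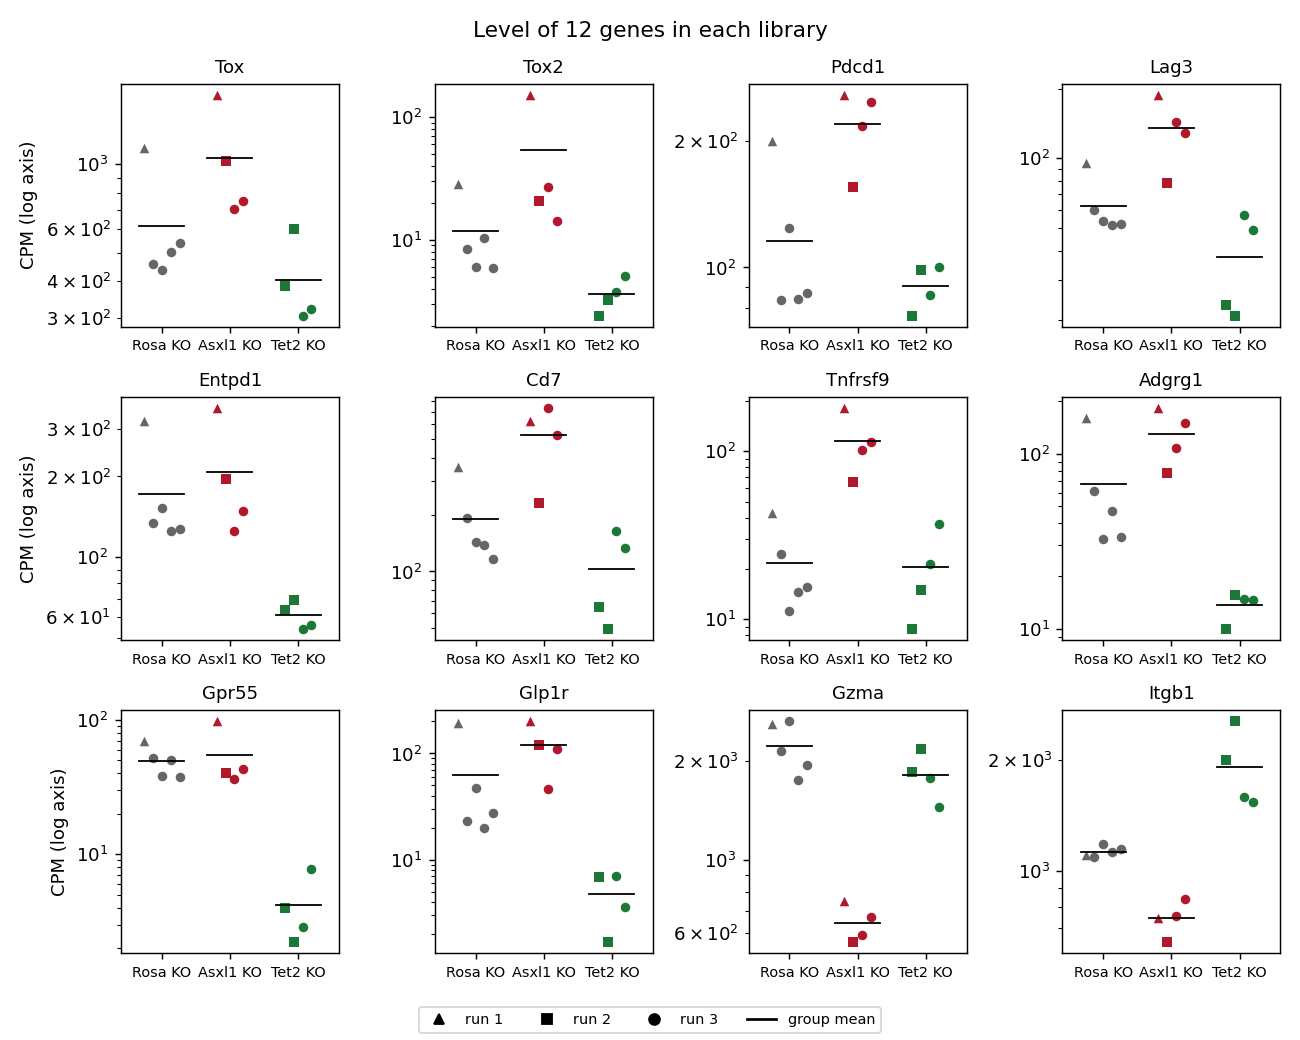
CPM on log axes of 12 genes in each Rosa KO (grey), Asxl1 KO (red) and Tet2 KO (green) library, with the run as marker shape and the group mean as a line. The Asxl1 KO library of run 1 (triangle) is the highest of its group in every panel except Cd7 and Itgb1, and the Asxl1 KO and Tet2 KO libraries do not overlap in any panel.

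Asxl1 KO 1, the Asxl1 KO library of run 1, was the highest of its group for 22 of the 29 named genes that were higher in Asxl1 KO. Rosa KO 1, the Rosa KO library of the same run, was the highest of its own group for 20 of the 29. The model held the run as a term. No Tet2 KO library lay in run 1, so Asxl1 KO 1 entered the comparison only through the Rosa KO and Dnmt3a KO libraries of that run. The 29 genes were chosen as higher in Asxl1 KO, and the same shares over all genes were not taken.

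**Figure D3:**
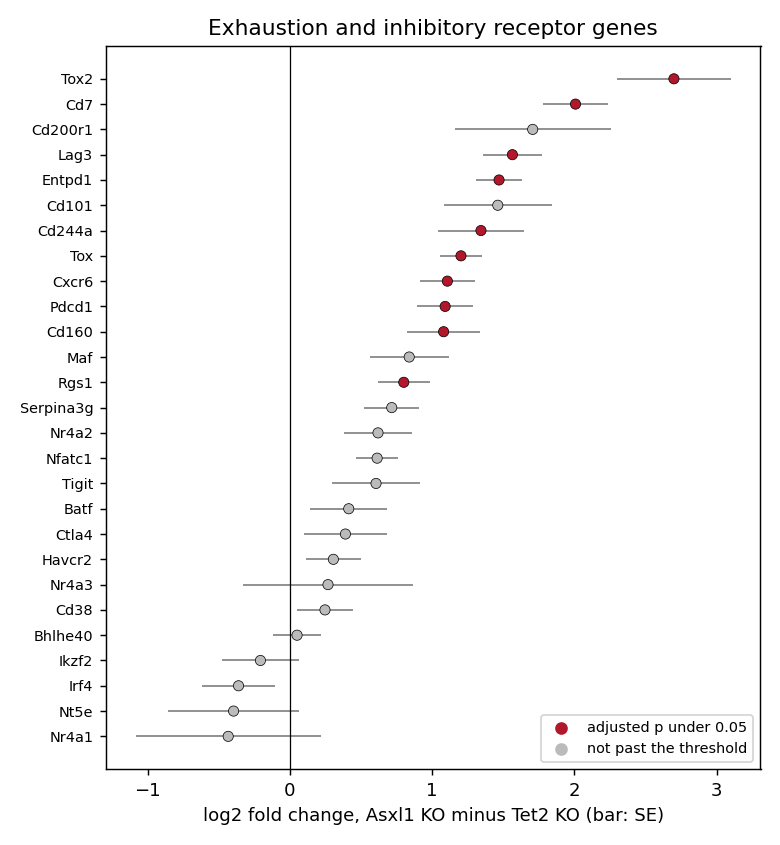
Log2 fold change (Asxl1 KO minus Tet2 KO) with its SE for the 27 exhaustion and inhibitory receptor genes, in order of size. The 10 that passed (red) are all above 0, and 4 of the 27 are below 0, none of which passed.

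Receptors that deliver activating signals, and the signalling proteins behind the T cell receptor, held further higher genes. Of 14 costimulatory receptor genes tested, 2 were higher and 0 lower in Asxl1 KO than in Tet2 KO, against 0.447% and 0.115% over all genes. Their median log2 fold change was 0.44, which was −0.13 in run 2 and 0.56 in run 3. Tnfrsf9, a costimulatory TNF receptor induced by activation, stood at 181, 65.5, 101 and 114 CPM in Asxl1 KO and at 8.74, 14.9, 21.4 and 36.9 CPM in Tet2 KO, so that the groups did not overlap. The log2 fold change was 2.06 ± 0.31 (adjusted p = 0.000664, edgeR), and against Rosa KO it was 2.63 (adjusted p = 1.18e-05) in Asxl1 KO and 0.57 (adjusted p = 0.477) in Tet2 KO. Tnfrsf1b, a receptor for TNF, had a smaller difference of 0.88 ± 0.20 (adjusted p = 0.0361), and passed in 1 of the 8 fits that left out a library.

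Of 19 genes of the T cell receptor complex and its proximal signalling that were tested (Trac, Trbc1 and Trbc2 were not), 2 were higher and 0 lower. Over all genes these shares were 0.447% and 0.115%, and DESeq2 called 3 of the 19 higher. The list's median was 0.37, but −0.06 in run 2 and 0.61 in run 3, and 13 of the 19 had an unadjusted p under 0.05 for the difference between runs. The 19 include all 9 tested CD8 T cell markers, each of which had such a p. When the run was not a term, 1 of these 19 and 0 of the 14 costimulatory genes passed in edgeR (10 and 5 at an unadjusted p under 0.05). Cd6, a receptor that tunes T cell receptor signals, stood at 188, 99.2, 177 and 147 CPM in Asxl1 KO and at 54.8, 56.7, 51.9 and 51.1 CPM in Tet2 KO (1.43 ± 0.26, adjusted p = 0.00449, edgeR). The Src family kinase Fyn stood at 648, 682, 608 and 672 CPM and at 453, 521, 386 and 378 CPM (0.68 ± 0.15, adjusted p = 0.0306), and lost its call in 5 of the 8 fits without 1 library (adjusted p up to 0.119). Il2rb, a chain of the receptors for interleukins 2 and 15, was the only 1 of 20 cytokine receptor genes to pass in edgeR, against 0.562% of all genes. DESeq2 called 2 of the 20 higher and 1 lower. Il2rb stood at 1506, 679, 951 and 1082 CPM in Asxl1 KO and at 521, 528, 518 and 532 CPM in Tet2 KO (0.81 ± 0.16, adjusted p = 0.0132, edgeR). It did not pass without Tet2 KO 3, Tet2 KO 4 or Asxl1 KO 4 (adjusted p up to 0.074).

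Adgrg1, Gpr55, Glp1r and Cd200r2, which encode surface receptors, were 4 of the 15 highest genes; they are described side by side after their values were seen, and receptors were not counted as a list. Adgrg1, the adhesion receptor also called GPR56 and a member of the effector list, stood at 182, 77.2, 108 and 149 CPM in Asxl1 KO and at 9.98, 15.6, 14.8 and 14.6 CPM in Tet2 KO (log2 fold change 2.96 ± 0.33, adjusted p = 8.51e-06, edgeR). Gpr55, a receptor for lysophosphatidylinositol, stood at 97.8, 40.6, 36.4 and 43.2 CPM in Asxl1 KO and at 3.97, 2.22, 2.88 and 7.74 CPM in Tet2 KO (3.27 ± 0.38, adjusted p = 1.53e-05). Rosa KO libraries held 37.6 to 70.3 (median 49.9) CPM of Gpr55, in the range of Asxl1 KO, and the differences from Rosa KO were 0.14 (adjusted p = 0.899) in Asxl1 KO and −3.13 (adjusted p = 9.15e-05) in Tet2 KO.

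Glp1r, the receptor for glucagon-like peptide 1, stood at 201, 121, 46.5 and 109 CPM in Asxl1 KO and at 6.87, 1.67, 7.09 and 3.59 CPM in Tet2 KO (4.12 ± 0.46, adjusted p = 2.90e-05, edgeR). Cd200r2, a member of the CD200 receptor family, had the largest log2 fold change of the genes that passed, 5.83 ± 1.05 (adjusted p = 0.00449). It rests on few reads in Tet2 KO: 0, 10, 0 and 1 in Tet2 KO 1 to 4, against 804, 106, 105 and 58 in Asxl1 KO 1 to 4. Against Rosa KO, Glp1r differed by 1.17 (adjusted p = 0.129) in Asxl1 KO and by −2.95 (adjusted p = 0.00113) in Tet2 KO, and Cd200r2 by 0.04 (adjusted p = 0.989) and −5.78 (adjusted p = 0.00589).

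Others in the 15 highest genes were Prrt1 (3.49 ± 0.79), Sept4 (3.26 ± 0.46), Nccrp1 (2.87 ± 0.57), Grb7 (2.496 ± 0.58), Abhd4 (2.36 ± 0.54), Abcb9 (2.34 ± 0.31), Selenon (2.12 ± 0.48) and Frmd4a (2.08 ± 0.37), with adjusted p between 8.59e-05 and 0.0449 (edgeR). Ikzf4, which encodes the zinc finger factor Eos, stood at 36, 23.8, 25.5 and 13.1 CPM in Asxl1 KO and at 1.4, 3.93, 2.44 and 3.59 CPM in Tet2 KO (3.03 ± 0.55, adjusted p = 0.00508). Jdp2, a factor of the AP-1 family, stood at 33.1, 28.8, 20.6 and 24.7 CPM and at 5.34, 1.9, 8.49 and 6.46 CPM (2.12 ± 0.47, adjusted p = 0.035). All Asxl1 KO libraries lay above all Tet2 KO libraries for each of these genes. The calls of Prrt1, Nccrp1, Grb7, Abhd4, Selenon and Jdp2 were lost in 5 to 7 of the 8 fits without 1 library, with adjusted p up to 0.29.

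Because Tet2 acts on cytosine in CG steps, the promoter windows of the 3 highest and the 3 lowest genes are shown with each CG in capitals, 5′ to 3′ on the gene's strand. They are from RefSeq, build GRCm38.p6, and are 300 bases long. Those of Cd200r2, Glp1r and Hspa1b run from 250 bases before the gene's annotated start over 50 bases from it, that of Prrt1 begins 51 bases before its start, and those of Cdc20b and Nebl lie wholly inside the annotated gene. At least 1 CG, read on either strand since CG is its own complement, occurs in 94.6% of the windows in that table. Nebl has 4 starts in the table, of which the first listed is shown. Methylation was not analysed here.
Cd200r2, chr16:44866847-44867146, plus strand, 2 CG: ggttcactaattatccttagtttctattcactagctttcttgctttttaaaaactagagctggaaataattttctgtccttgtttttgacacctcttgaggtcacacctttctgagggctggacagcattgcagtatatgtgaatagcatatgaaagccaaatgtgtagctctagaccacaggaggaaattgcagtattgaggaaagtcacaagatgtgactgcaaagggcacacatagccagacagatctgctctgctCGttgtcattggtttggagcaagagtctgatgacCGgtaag
Glp1r, chr17:30901617-30901916, plus strand, 29 CG: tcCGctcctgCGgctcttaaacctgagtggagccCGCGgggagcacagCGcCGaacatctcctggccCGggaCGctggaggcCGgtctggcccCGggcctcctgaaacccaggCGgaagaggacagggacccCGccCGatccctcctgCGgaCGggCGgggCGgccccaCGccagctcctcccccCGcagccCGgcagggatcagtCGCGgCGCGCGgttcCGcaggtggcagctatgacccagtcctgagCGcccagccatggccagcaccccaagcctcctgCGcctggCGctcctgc
Prrt1, chr17:34629314-34629613, plus strand, 11 CG: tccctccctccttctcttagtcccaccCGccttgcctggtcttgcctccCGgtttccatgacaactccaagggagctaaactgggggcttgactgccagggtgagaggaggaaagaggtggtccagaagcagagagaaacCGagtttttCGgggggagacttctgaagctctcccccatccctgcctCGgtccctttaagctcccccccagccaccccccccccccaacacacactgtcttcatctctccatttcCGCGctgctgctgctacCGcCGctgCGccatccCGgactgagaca
Hspa1b, chr17:34959189-34959488, minus strand, 16 CG: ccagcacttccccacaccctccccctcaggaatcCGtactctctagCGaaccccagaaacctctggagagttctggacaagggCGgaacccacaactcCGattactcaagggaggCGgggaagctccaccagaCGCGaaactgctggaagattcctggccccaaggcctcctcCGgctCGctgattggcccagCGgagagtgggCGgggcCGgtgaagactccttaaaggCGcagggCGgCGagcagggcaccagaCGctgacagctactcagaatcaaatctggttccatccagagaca
Cdc20b, chr13:113035129-113035428, plus strand, 23 CG: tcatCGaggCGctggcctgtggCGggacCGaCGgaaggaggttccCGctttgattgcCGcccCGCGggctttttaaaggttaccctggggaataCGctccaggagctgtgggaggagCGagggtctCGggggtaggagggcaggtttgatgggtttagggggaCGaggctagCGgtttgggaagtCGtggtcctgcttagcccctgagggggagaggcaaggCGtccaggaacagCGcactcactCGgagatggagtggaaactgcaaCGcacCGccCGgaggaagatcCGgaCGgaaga
Nebl, chr2:17670116-17670415, minus strand, 5 CG: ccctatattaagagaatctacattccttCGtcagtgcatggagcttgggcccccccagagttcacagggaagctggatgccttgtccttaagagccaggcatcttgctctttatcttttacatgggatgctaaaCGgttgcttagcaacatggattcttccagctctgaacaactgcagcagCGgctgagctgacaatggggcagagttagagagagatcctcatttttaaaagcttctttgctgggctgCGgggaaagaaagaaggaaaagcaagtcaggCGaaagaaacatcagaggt

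These windows differed widely on both sides of the comparison. Among the higher genes Cd200r2 held 2 CG and Glp1r 29, and among the lower genes Nebl held 5 and Cdc20b 23. A comparison of CG content over all higher genes was void, since only 77.4% of the 62, and 79.0% of all tested genes, had an entry in the table.

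The 16 lower genes were led by a granzyme and an integrin. Gzma, a serine protease of cytotoxic granules, stood at 749, 561, 588 and 671 CPM in Asxl1 KO and at 1855, 2183, 1778 and 1446 CPM in Tet2 KO. The groups did not overlap, and the log2 fold change was −1.61 ± 0.17 (adjusted p = 8.51e-06, edgeR). Rosa KO libraries held 1747 to 2642 (median 2145) CPM, and the differences from Rosa KO were −1.81 (adjusted p = 4.49e-07) in Asxl1 KO and −0.20 (adjusted p = 0.738) in Tet2 KO. Cdc20b had a log2 fold change of −4.30 ± 0.77 (adjusted p = 0.00449), from 22 reads in all 4 Asxl1 KO libraries against 899 in the Tet2 KO libraries. Its RefSeq span (GRCm38.p6, chromosome 13, 113034975 to 113121019) contains that of Gzma (113093824 to 113100981). Whether the authors counted by strand is not given in the sources used here, so reads of Cdc20b and Gzma may not be separated.

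Itgb1, the integrin beta 1 chain that pairs with alpha chains to bind extracellular matrix and Vcam1, stood at 749, 643, 756 and 843 CPM in Asxl1 KO and at 1995, 2538, 1580.5 and 1534 CPM in Tet2 KO (−1.32 ± 0.15, adjusted p = 1.40e-05, edgeR). Rosa KO lay between the knockouts, at 1089 to 1181 (median 1125) CPM, and the differences from it were −0.63 (adjusted p = 0.0203) in Asxl1 KO and 0.69 (adjusted p = 0.0204) in Tet2 KO. Ccr2, a receptor for inflammatory chemokines, stood at 437, 607, 263 and 300.1 CPM and at 1029.8, 1386, 525 and 452 CPM (−0.97 ± 0.16, adjusted p = 0.00263). The Ccr2 groups overlapped because Asxl1 KO 2, of run 2, exceeded the Tet2 KO libraries of run 3; within run 2 and within run 3 every Asxl1 KO library lay below every Tet2 KO library. Against Rosa KO, Ccr2 differed by 0.14 (adjusted p = 0.729, edgeR) in Asxl1 KO and by 1.11 (adjusted p = 0.000441) in Tet2 KO. Of the 25 egress, homing and integrin genes, Itgb1 and Ccr2 were lower and Cxcr6 higher in Asxl1 KO than in Tet2 KO (median −0.12). Over all genes these shares were 0.115% and 0.447%.

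Hspa1b, a stress-inducible Hsp70 gene, had 0, 0, 2 and 6 reads in the Asxl1 KO libraries, in order, and 285, 83, 82 and 86 in the Tet2 KO libraries (−5.76 ± 1.28, adjusted p = 0.0362, edgeR). It has a near-identical neighbour, Hspa1a, between which reads could be split, and Rosa KO libraries held 0.151 to 32.9 (median 1.12) CPM. The kinase Sgk1 (−1.18 ± 0.27), the sodium-proton exchanger Slc9a7 (−1.71 ± 0.32), Ifrd1 (−1.52 ± 0.27), Nebl (−2.27 ± 0.51) and Ms4a4c (−1.14 ± 0.21) were also lower without overlap, as were the phosphatase Cdc25b (−0.97 ± 0.22) and the importin Ipo5 (−0.88 ± 0.19). Klra9, of the Ly49 receptor family, was lower (−1.41 ± 0.32, adjusted p = 0.0362), and its reads may be shared with its paralogs. Vim (−0.66 ± 0.13), Cmah (−0.96 ± 0.20) and Atp10d (−0.87 ± 0.19) passed with groups that overlapped. Leaving out single libraries ended the call of Cdc25b in 8 of 8 fits, of Nebl in 7, of Hspa1b, Sgk1 and Klra9 in 6, of Ipo5, Cmah and Atp10d in 5, and of Vim and Ms4a4c in 2 (adjusted p up to 0.36).

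The effector and cytotoxic list did not move one way. Of 34 members tested, 2 were higher (Fasl and Adgrg1) and 1 lower (Gzma) in Asxl1 KO than in Tet2 KO, against 0.447% and 0.115% over all genes. Their median log2 fold change was 0.06, which was −0.40 in run 2 and 0.37 in run 3. Fasl, the ligand that triggers death of Fas-bearing cells, stood at 249, 203, 265 and 291 CPM in Asxl1 KO and at 139, 153, 128 and 88 CPM in Tet2 KO (1.00 ± 0.18, adjusted p = 0.00418, edgeR). Against Rosa KO, Fasl differed by −0.27 (adjusted p = 0.439) in Asxl1 KO and by −1.27 (adjusted p = 0.000414) in Tet2 KO. Gzmb (−0.34 ± 0.14, adjusted p = 0.517) and Ifng (0.45 ± 0.28, adjusted p = 0.846) did not pass. Prf1, which encodes perforin, stood at 526, 176, 376 and 407 CPM and at 199, 207, 139.6 and 133 CPM (0.90 ± 0.23, adjusted p = 0.0905), and its log2 fold change was 1.52 in run 3 and −0.21 in run 2.

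Of 26 stem-like and memory genes, 0 passed in edgeR in either direction (median −0.12), against 0.562% of all genes. At that share, 0 of 26 is no result about the list. An unadjusted p under 0.05 was found for 8 of the 26, against 1001 of all 13880 genes. DESeq2 called 1 of the 26 higher and 1 lower. Tcf7, the factor of stem-like CD8 T cells, stood at 383, 79.4, 99.2 and 67.6 CPM in Asxl1 KO and at 80.3, 126.3, 99.97 and 85.8 CPM in Tet2 KO (−0.02 ± 0.27, adjusted p = 0.999, edgeR). Asxl1 KO 1 was high and the other 7 libraries overlapped; against Rosa KO, Tcf7 differed by 1.94 (adjusted p = 8.64e-05) in Asxl1 KO and by 1.95 (adjusted p = 0.000268) in Tet2 KO. Il7r, the receptor for the survival cytokine interleukin 7, stood at 160.5, 114, 61.1 and 46.9 CPM and at 371, 498, 117 and 128 CPM (−1.30 ± 0.41, adjusted p = 0.348). Lef1 (−0.83 ± 0.30, adjusted p = 0.426), Slamf6 (−0.42 ± 0.24, adjusted p = 0.796) and Id3 (−0.01 ± 0.59, adjusted p = 0.999) did not pass.

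The transcription factors of effector differentiation did not pass either. Zeb2 stood at 307, 315, 222 and 201 CPM in Asxl1 KO and at 536, 829.7, 290.5 and 312 CPM in Tet2 KO (−0.60 ± 0.20, adjusted p = 0.38, edgeR), and against Rosa KO it differed by −2.27 (adjusted p = 4.49e-07) and −1.67 (adjusted p = 0.00011). Tbx21 (0.39 ± 0.29), Eomes (0.36 ± 0.21), Prdm1 (0.55 ± 0.18) and Id2 (0.27 ± 0.16) had adjusted p between 0.376 and 0.881. The surface markers Klrg1 (−0.42 ± 0.28) and Cx3cr1 (−0.31 ± 0.26) and the egress receptor S1pr5 (−0.24 ± 0.24) had adjusted p between 0.848 and 0.931. Missing the threshold does not show that these genes were equal in the 2 knockouts.

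Genes of chromatin regulation were counted next. Of 33 Polycomb genes and 10 genes of the deubiquitinase complex, 0 passed in edgeR or in DESeq2 (medians 0.00 and 0.01), with 1 and 0 genes at an unadjusted p under 0.05. Of 23 genes of the DNA methylation machinery, Zbtb38, a reader of methylated DNA, was higher in Asxl1 KO than in Tet2 KO. It stood at 427, 229, 208 and 237 CPM in Asxl1 KO and at 146, 163, 128 and 113 CPM in Tet2 KO (0.93 ± 0.17, adjusted p = 0.00598, edgeR). Against Rosa KO, Zbtb38 differed by 0.14 (adjusted p = 0.748) in Asxl1 KO and by −0.79 (adjusted p = 0.0228) in Tet2 KO. Of 27 Hox and other developmental genes that Polycomb silences, 8 were expressed enough to be tested and 0 passed in edgeR or in DESeq2, with 0 at an unadjusted p under 0.05. Outside chromatin, 0 of 38 interferon response, 40 proliferation, 20 glycolysis, 46 oxidative phosphorylation, 50 cytosolic ribosome and 28 immediate early genes passed in either tool. In that order, 4, 4, 2, 1, 15 and 4 of them had an unadjusted p under 0.05. Of 20 NK-type lectin receptors, Klra9 passed in edgeR, DESeq2 called 2 lower, and 8 had an unadjusted p under 0.05. Every Asxl1 KO library lay below every Tet2 KO library for 5 of the 20, against 1.47% of all genes. The median of the lectin receptors was −1.35 in run 2 and −0.21 in run 3. The medians of these 7 lists lay between −0.66 for the lectin receptors and −0.02 for oxidative phosphorylation. Of 25 cell death and survival genes, Fasl alone passed in edgeR, and DESeq2 called 2 higher. Over all genes, 0.562% passed in edgeR, and 1001 of 13880 had an unadjusted p under 0.05. At the first share, a count of 0 in lists of this size is no result about their members.

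The difference between the knockouts was also taken within the 2 runs that hold both. All 78 genes kept their sign in run 2 and in run 3. They were chosen by a fit that holds both runs, so this is not an independent check. A test of the difference between the runs passed for 0 of 13880 genes (0%; lowest adjusted p = 0.0752, edgeR), with 889 genes at an unadjusted p under 0.05, 10 of them among the 78; DESeq2 called 98. For Tox the log2 fold change was 1.05 in run 2 and 1.22 in run 3, for Entpd1 1.55 and 1.31, and for Gzma −1.85 and −1.36. For Itgb1 the values were −1.82 and −0.96, and for Sgk1 −2.21 and −0.69. Run 2 holds 1 Asxl1 KO library, so its values have no replicate for that knockout. The median of the proliferation genes changed sign, from 0.81 in run 2 to −0.66 in run 3, and 24 of the 40 had an unadjusted p under 0.05 for the difference between runs. The median of the 9 tested CD8 T cell markers went from −0.39 in run 2 to 0.65 in run 3, and all 9 had such a p. All 9 also belong to the 19 tested genes of the T cell receptor list, so the 2 lists are not separate observations.

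**Figure D4:**
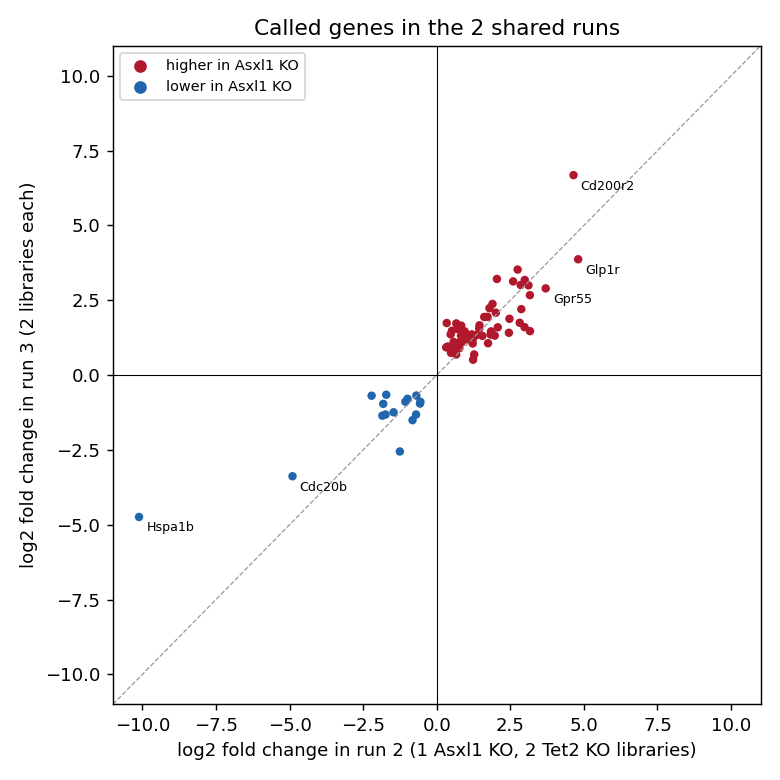
Log2 fold change (Asxl1 KO minus Tet2 KO) of the 78 genes that passed, in run 2 on the x axis and in run 3 on the y axis, with the dashed line marking equal values. All 62 higher genes (red) lie in the upper right and all 16 lower genes (blue) in the lower left, with Hspa1b, Cdc20b, Cd200r2, Glp1r and Gpr55 farthest out. The genes were chosen by a fit that holds both runs.

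Markers of other cell types moved with the comparison in part. CD8 T cell markers were expressed in every library (Cd8a 649 to 1240 CPM), Cd4 stood at 0.0904 to 19.2 CPM, and 0 of the 9 tested CD8 T cell markers passed in edgeR (median 0.36; 5 at an unadjusted p under 0.05, and DESeq2 called 1). The summed level of the CD8 markers was 4768 to 12437 CPM in Asxl1 KO, highest in Asxl1 KO 1, and 5069 to 5724 CPM in Tet2 KO. Of 18 B cell markers 0 passed in edgeR or in DESeq2 and 0 had an unadjusted p under 0.05, with a median of −0.94, which was 0.16 in run 2 and −1.94 in run 3. Their summed level was 1155 to 1962 CPM in Asxl1 KO and 3413, 205, 4723 and 4439 CPM in Tet2 KO 1 to 4. Dendritic cell markers summed to 878 to 1325 CPM in Asxl1 KO and to 106 to 3817 CPM in Tet2 KO. Most of this sum came from the MHC class II genes H2-Aa, H2-Ab1 and H2-Eb1. In Tet2 KO 3 these stood at 2201, 839 and 737 CPM, and the highest other member, Xcr1, at 12.1 CPM. The sum is therefore mainly a level of class II genes, and it was not separated from that of the B cell markers. In bulk RNA, fewer cells of a type and less RNA per cell cannot be told apart. With the B cell marker level as a term in the model, 87 genes passed (64 higher and 23 lower), 70 of them among the 78, and the exhaustion list held 9 higher and 0 lower members. No B cell or CD8 T cell marker was at 0 in any of the 8 libraries. Of the other marker lists, Cd160 and Gzma passed among 11 NK cell markers, and 0 members passed in the rest. Their part in the result was not tested.

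**Figure D5:**
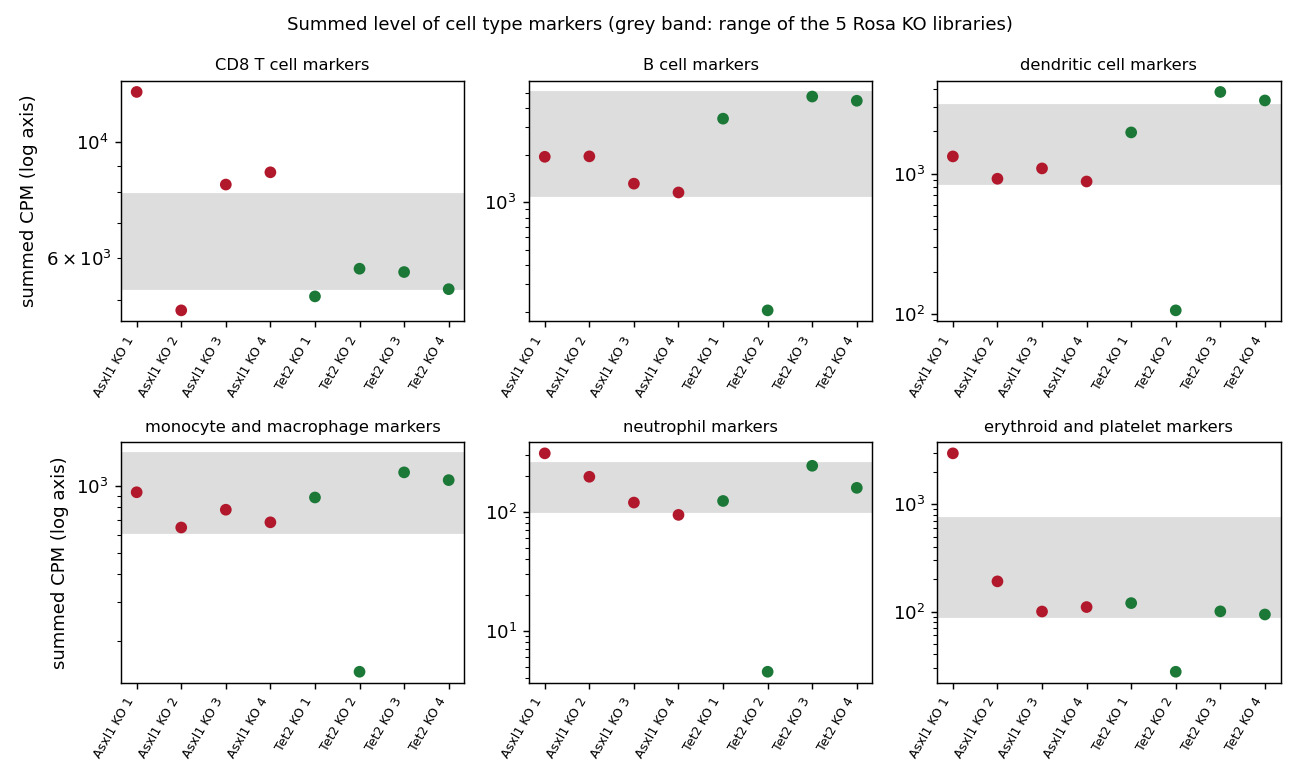
Summed CPM, on log axes, of 6 cell type marker lists in each Asxl1 KO (red) and Tet2 KO (green) library, with the range of the 5 Rosa KO libraries as a grey band. Tet2 KO 2 lies at 205 CPM of B cell markers, below every other library shown, and Asxl1 KO 1 at 2989 CPM of erythroid and platelet markers, above every other.

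Some of the genes that passed lie outside the rule for named genes and were chosen after their values were seen. Ubash3b, a phosphatase that dampens T cell receptor signals, stood at 244, 213, 149 and 149.7 CPM in Asxl1 KO and at 68.5, 87.6, 38.2 and 56 CPM in Tet2 KO (1.61 ± 0.17, adjusted p = 8.51e-06, edgeR). Sh2d2a, an adaptor of T cell receptor signalling (1.03 ± 0.16, adjusted p = 0.000904), Rgs3 (1.53 ± 0.24, adjusted p = 0.00119) and the deiminase Padi2 (1.41 ± 0.22, adjusted p = 0.00122) were higher without overlap. So were Cd80, a ligand of Cd28 and Ctla4 (1.42 ± 0.24, adjusted p = 0.00263), the cytokine signalling inhibitor Cish (1.24 ± 0.27, adjusted p = 0.0282), the adaptor Lax1 (0.79 ± 0.18, adjusted p = 0.0431) and the prostaglandin receptor Ptger4 (1.07 ± 0.23, adjusted p = 0.0255). Cish, Lax1 and Ptger4 lost their calls in 7, 7 and 6 of the 8 fits without 1 library (adjusted p up to 0.216). Of the 78 genes, 19 overlap another gene in the annotation, among them Cxcr6, Fyn, Zbtb38, Ikzf4, Frmd4a, Slc9a7, Ifrd1, Nebl, Prrt1, Grb7 and Padi2, and reads of such pairs may have been shared.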

How the data were processed

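RNA-seq libraries of CD8 T cells were analysed from tables of raw counts per gene that the authors deposited, 1 per library, for 24594 NCBI gene identifiers. STAR 2.5.3a, DESeq2 1.26.0 and the build mm10 are listed in the submitters' processing notes, with no role stated. Which tool and annotation made the counts, and whether it used the strand, is not given in the sources used here. The labels' protocols describe a stranded kit for total RNA, although their molecule field reads genomic DNA. The 3 identifiers with no symbol were left out; they took at most 2.78e-04% of a library.

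Counts were scaled by TMM, filtered with filterByExpr (minimum count 10, minimum total 15; 13880 genes left) and tested with edgeR 4.0.16 (limma 3.58.1, R 4.3.3). The quasi-likelihood F test, robust, modelled group and library-number run in the 17 libraries together, leaving 11 residual degrees of freedom (common biological coefficient of variation 0.604). P-values were adjusted by Benjamini-Hochberg over all tested genes, with a threshold of 0.05. The SE of a log2 fold change is its size divided by the square root of F. CPM values are TMM-scaled. A second fit had a term for each group in each run (8 residual degrees of freedom). DESeq2 1.42.0 was an alternative. On simulated counts of this comparison (13880 genes, 100 changed at each size), 25% of 2-fold and 65% of 4-fold changes were recovered and 1 unchanged gene was called. The counts were drawn from the fitted model with its run term, and the changed genes from those above a minimum mean count. These shares therefore do not show how often calls on the measured libraries are false.

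Lists are described by counts and medians, with no set test. Members and lists were chosen with earlier results of these data known. The text names 26 genes whether or not they passed, up to 4 passing members of each list by adjusted p, and the 15 highest and 15 lowest passing genes. For these last, the higher group had to average 5 CPM or more and the sign had to hold with no run term; predicted genes, small RNAs, pseudogenes, segments of antigen receptors and other cell types' markers were not eligible. Coordinates and promoters are from RefSeq, GRCm38.p6 (mm10); 24570 identifiers matched.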

Additional observations from a re-analysis of the deposited data

Results flagged for a closer look

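Within each knockout, a library was set apart where its gap to the nearest of the other 3, on log2(CPM + 1), took up more of the group's range than Dixon's 95% critical share allows. This was done for 130 sets of 4 values (the named genes in each knockout), and chance alone gives about 1 in 20 such sets; 5 were found. Adgrg1 was low in Tet2 KO 1, at 9.98 CPM against 14.6 to 15.6 CPM in the other 3. Cd200r2 was high in Tet2 KO 2, at 0.452 CPM against 0 to 0.0609 CPM. Grb7 was high in Tet2 KO 1, at 8.84 CPM against 1.55 to 2.13 CPM. Cxcr6 was low in Asxl1 KO 2, at 278 CPM against 493 to 553 CPM. Vim was high in Asxl1 KO 1, at 1398 CPM against 779 to 791 CPM, and those 3 lay below every Tet2 KO library.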

How the results depend on the processing

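All 78 genes that passed kept their direction under all 22 alternatives, and 4 passed under every one except run 2 alone. The alternatives reuse the libraries by which the 78 were chosen. The number of calls depended on the model: 27 genes passed (22 higher, 5 lower) when the run was not a term, and 5 did when, besides, only the 8 libraries entered (5 and 0). Run 3 alone gave 618 (286 and 332), with the share of higher calls at 46.3% and 72 of the 78 among them, and run 2 alone gave 0 (0 and 0; 576 at an unadjusted p under 0.05). DESeq2 gave 177 (140 and 37) and no filter on low counts 192 (114 and 78), a setting that moved the median of all genes to 0.13; both held all 78. Other scalings, the stricter filter and the B cell term gave 78 to 87. The 8 libraries with the run term gave 70, of which 55 were among the 78. The 23 calls lost there included those of Glp1r, Fasl, Zbtb38, Il2rb, Fyn and Cdc20b. Leaving out 1 library at a time gave 35 to 87 genes (29 to 66 higher, 6 to 21 lower), with 49 without Tet2 KO 1, 35 without Tet2 KO 3, 48 without Tet2 KO 4, 47 without Asxl1 KO 3 and 40 without Asxl1 KO 4. Leaving out Asxl1 KO 3 and 4 together, chosen after seeing the data because of their B cell markers, gave 46 (25 and 21). The causes of these changes were not tested.

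For the difference between runs, DESeq2 called 98 genes and no filter 162, while leaving out 1 library gave 0 to 325, the most without Tet2 KO 1, and 40 without Tet2 KO 2.

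Same-numbered libraries of the 2 knockouts correlated at 0.01, 0.08, 0.09 and 0.08 in their deviations from the group mean, and differently numbered ones at −0.16 to 0.11. Asxl1 KO 1 and Tet2 KO 1 lay in different runs, while the other same-numbered libraries shared a run. These correlations therefore cannot show whether the replicate numbers pair the samples. With the replicate number as a block beside the run, 37 genes passed (28 higher, 9 lower), 36 of them among the 78, and with the block in place of the run 17 did (14 and 3). The exhaustion list then held 7 and 1 higher members, in that order, and 0 lower.

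Reversals occurred only in genes that did not pass. In run 2 alone the log2 fold change was 0.12 for Asxl1, −0.33 for Eomes, −0.065 for Id2, 0.29 for Id3, −0.55 for Ifng, −0.16 for Prf1, −0.29 for Tbx21 and −0.081 for Tet2. In run 3 alone it was 0.25 for Cx3cr1 and 0.16 for S1pr5. Without Asxl1 KO 3 and 4 it was −0.019 for Id2, 0.76 for Id3, 0.10 for Slamf6 and −0.086 for Tigit. For Id3 it was 0.0023 with the stricter filter, 0.29 with the replicate block and the run and 0.58 with the B cell term. For Tcf7 it was 0.68 with no run term, 0.65 with the 8 libraries and no run term, 0.0020 with the stricter filter and 0.21 with the replicate block in place of the run. Leaving out 1 library at a time gave −0.29 to 0.026 for Asxl1, −0.57 to 0.093 for Cx3cr1, −0.36 to 0.48 for Id3, −0.46 to 0.11 for S1pr5 and −0.15 to 0.23 for Tcf7.

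Precision was limited by the number of libraries, with 1 Asxl1 KO library in run 2, and by few reads for Cd200r2, Hspa1b and Cdc20b.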

Other observations

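Further genes passed that the report has not described; they were chosen after their values were seen. Among those higher in Asxl1 KO were the actin crosslinker Actn1 (log2 fold change 1.12, adjusted p = 0.0449, edgeR), the metalloproteases Adam8 (1.28, 0.0488) and Adam19 (0.77, 0.0306), and Sema7a (1.51, 0.0445). No list of such genes was tested, and no theme is claimed for any gene given here. Adam19 passed in 2 of the 8 fits that left out 1 library, and Actn1, Adam8 and Sema7a in 1 each.

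Also higher were the phospholipid flippase Atp8a2 (1.86, adjusted p = 0.0105, edgeR), the phosphatidate phosphatase Lpin1 (1.22, 0.00647), the diacylglycerol kinase Dgkh (1.16, 0.0362) and the xanthine dehydrogenase Xdh (0.80, 0.0491). Atp8a2 and Lpin1 lost their calls only without Tet2 KO 3 among the 8 libraries, at adjusted p 0.074 and 0.0504. Setbp1, which encodes a SET-binding protein, stood at 159, 175, 104 and 100.5 CPM in Asxl1 KO 1 to 4 and at 60.2, 84.7, 48.7 and 78.2 CPM in Tet2 KO 1 to 4 (0.95, adjusted p = 0.0362), and passed in 2 of the 8 fits.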
